A study of Mus musculus with 24 samples.

Results

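Ribosomal protein pseudogenes are copies of the mRNAs of ribosomal protein genes. They were taken here as the genes whose symbol starts with Rpl or Rps and contains -ps and that reached 10 counts in 3 or more of the 24 libraries. Of 244 genes with such a symbol among the 34471 genes of the deposited table, 181 passed. They were assigned to 53 parent genes, the parent being the gene whose symbol stands before -ps. RNA was sequenced from the distal jejunum of C57BL/6 mice, 3 in each of 8 groups: males and females, wild type or Ptk6-/-, given regular water (control) or 100 mM succinate in the drinking water for 7 days. The Ptk6 deletion is carried in the germline, so it is not confined to the epithelium, and the mice, aged 9 to 11 weeks at the end, were bred in 1 colony over several litters. Each library is bulk tissue, in which fewer cells of a type and less RNA per cell cannot be told apart.

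A processed pseudogene arises when an mRNA is reverse transcribed and the copy is inserted elsewhere in the genome, without the introns and usually without the promoter of its parent. Ribosomal protein genes, which encode the protein parts of the ribosome and are among the most strongly expressed genes of dividing tissues such as the intestinal epithelium, have left many such copies. Because a copy resembles the mRNA, a short read from the parent can fit the pseudogene as well. The comparison with the parent over the 24 libraries addresses how far the counts given to a pseudogene can be separated from those of its parent.

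The 181 pseudogenes lay on 20 chromosomes, 24 of them on X. The deposited annotation called 167 processed pseudogenes, 8 transcribed processed pseudogenes and 6 protein coding. The Rps12 family was the largest with 16 members, followed by Rpl31 with 11 and by Rpl21, Rps2 and Rpsa with 9 each. At the edge of the filter, Rpl29-ps5 and Rps2-ps4 reached 10 counts in exactly 3 libraries and had highest counts of 12 and 13, while 6 genes reached it in 2 libraries and had highest counts of 10 to 16.

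Sequences of 180 of the 181 were matched by transcript to GENCODE M21, whose transcripts were used for their bases only. A median of 98.3% of a pseudogene's bases were identical to the parent's, with 13 pseudogenes identical throughout, 88 from 98% to just under 100%, 74 from 90% to just under 98% and 5 under 90%. Since the libraries were read in stretches of 150 bases, each pseudogene was also cut into all its windows of 150 bases. In 75 pseudogenes no window occurred in the parent, in 70 up to 50% did, and in 35 over 50% did. In 52 pseudogenes every window occurred in no other annotated transcript, and in 29 none did.

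To show what these classes mean in bases, stretches of 150 coding bases are given for pseudogenes from each, chosen as the gap-free stretch with the most differences from the parent. Capitals mark the bases that differ, and positions are counted from the A of the parent's start codon. Rps12-ps3 is identical to Rps12, which encodes a protein of the small subunit, and bases 1 to 150 of both read the same.
Rps12-ps3: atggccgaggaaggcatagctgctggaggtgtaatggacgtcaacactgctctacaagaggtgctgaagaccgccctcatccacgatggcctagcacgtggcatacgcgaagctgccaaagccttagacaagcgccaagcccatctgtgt

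Rpl7a-ps11 and Rpl7a, a protein of the large subunit, are shown over bases 37 to 186, where A186G is the only difference.
Rpl7a-ps11: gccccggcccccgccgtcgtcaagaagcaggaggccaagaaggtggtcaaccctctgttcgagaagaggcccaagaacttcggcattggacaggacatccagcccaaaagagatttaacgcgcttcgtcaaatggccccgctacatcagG
Rpl7a: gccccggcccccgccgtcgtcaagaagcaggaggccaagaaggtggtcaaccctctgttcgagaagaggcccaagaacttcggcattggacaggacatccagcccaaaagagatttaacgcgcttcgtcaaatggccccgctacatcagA

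Rpsa-ps10 and Rpsa, the small subunit protein also known as the laminin receptor, differ at T210C, C219T and C345G within bases 196 to 345.
Rpsa-ps10: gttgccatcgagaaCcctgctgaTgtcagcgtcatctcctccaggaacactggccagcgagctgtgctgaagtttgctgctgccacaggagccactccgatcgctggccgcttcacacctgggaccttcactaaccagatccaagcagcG
Rpsa: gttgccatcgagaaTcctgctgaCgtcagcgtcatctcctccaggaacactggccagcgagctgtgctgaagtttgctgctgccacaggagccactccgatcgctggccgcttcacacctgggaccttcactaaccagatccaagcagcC

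Rps2-ps9 is far more diverged from Rps2 and has 19 differences within bases 283 to 432, the first of them T285C and the last C432T.
Rps2-ps9: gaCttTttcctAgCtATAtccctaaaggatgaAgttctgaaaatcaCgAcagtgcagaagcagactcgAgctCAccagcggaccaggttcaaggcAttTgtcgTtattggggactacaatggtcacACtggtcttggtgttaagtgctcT
Rps2: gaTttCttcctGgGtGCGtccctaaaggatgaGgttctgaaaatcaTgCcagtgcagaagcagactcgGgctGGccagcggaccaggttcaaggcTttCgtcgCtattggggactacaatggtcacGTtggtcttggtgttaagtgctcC

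A parent named by symbol was not always the gene the sequence resembled. Rps7-ps2 shared 1.63% of its bases with Rps7 and Rpl18-ps1 6.10% with Rpl18, and neither had a run of more than 9 identical bases, so for this pair the comparison with the parent is one between unrelated sequences. The next lowest was Rps2-ps9 with 86.4%. Rpl13-ps1 matched Rpl13 at 92.4% on the opposite strand.

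Before the results, 3 libraries need to be named. In the library of wild type control male 1, 51.2% of 22826652 counts belonged to the ribosomal RNA gene Rn18s-rs5. In that of succinate-treated Ptk6-/- male 1, 29.7% of 8080321 counts did, and the total was the lowest of the series, the others lying between 22826652 and 52824743. In that of succinate-treated wild type female 2, 5 heart muscle genes summed to 13655 CPM (counts scaled to a common library size), against 88.2 at most elsewhere. Ptk6 had 284 to 2405 counts in wild type libraries and 7 to 61 in Ptk6-/- libraries. The 7 enterocyte genes (Alpi, Sis, Lct, Fabp1, Fabp2, Vil1, Apoa4) summed to 4753 to 21212 CPM, B cell genes to 12.5 to 110.8 CPM, smooth muscle genes to 1019 to 5149 CPM and cycling genes to 85.2 to 357 CPM, and of 5 listed acinar genes of the pancreas the 2 found in the table summed to at most 0.0925 CPM.

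The pseudogenes took few counts beside their parents. The median count of a pseudogene over the 24 libraries ranged from 2 to 6534, with a median of 110.5, and 126 of the 181 had at least 10 counts in every library. Their mean level per length ranged from 0.119 to 187 FPKM (fragments scaled by gene length and library size), with a median of 4.28, against a median of 100.5 for the 53 parents. Summed over all, they had 8.64 to 12.97 counts per 100 parent counts over the 24 libraries. The median of this ratio, 10.6, became 33.9 on FPKM, by which short pseudogenes gain.

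The 6 pseudogenes with the highest mean FPKM were Rps12-ps3 with 187.4, Rpl17-ps3 with 160.8, Rpl7a-ps11 with 130.9, Rpl17-ps10 with 116.5, Rpl14-ps1 with 106.2 and Rps10-ps2 with 104.5. These values were near or above those of the parents, which were 131.6 for Rps12, 62.8 for Rpl17, 69.4 for Rpl7a, 103.8 for Rpl14 and 80.1 for Rps10. In counts, which do not divide by length, all 6 remained below their parents in the median library.

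The largest pseudogenes relative to their parent were Rpl17-ps3, with a median of 88.8 counts per 100 parent counts, Rpl17-ps10 with 88.4 and Rpl7a-ps11 with 81.1. Rpl17, a protein of the large subunit near the exit of the peptide tunnel, has its gene on chromosome 18, whereas Rpl17-ps3 lies at chr12:67557530-67558085 on the plus strand and Rpl17-ps10 at chr7:72298505-72299059 on the minus strand (positions in GRCm39, as deposited). The 6 Rpl17 pseudogenes together held 285 counts for each 100 of Rpl17 over the 24 libraries, the only family in which the pseudogenes outweighed the parent. The families next in order were Rpl7a with 98.5, Rpl21 with 43.9, Rps27a with 43.8 and Rps12 with 42.6. At the other end, 88 of the 181 pseudogenes had under 1 count per 100 parent counts.

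Size moved with sequence. Pseudogenes with no window in the parent had a median of 0.313 counts per 100 parent counts, those with up to 50% had 1.37, and those with over 50% had 9.0. Across the 180 pseudogenes with a sequence, the Spearman correlation of this ratio with the share of windows found in the parent was 0.72, a description over genes that share parents and libraries. In this sense the pseudogenes hardest to tell from the parent by a read were also those given the most reads.

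**Figure D1:**
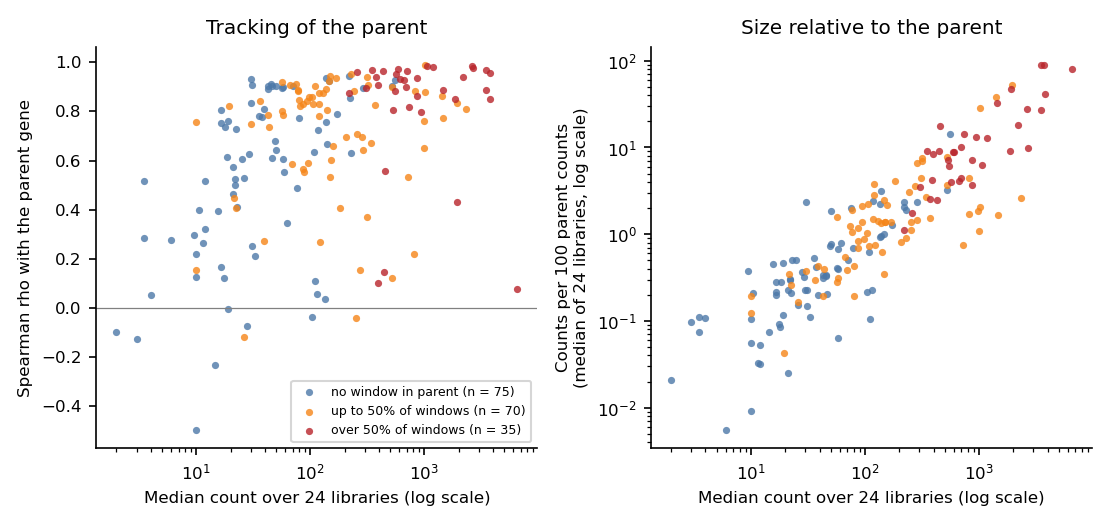
Each point is one pseudogene: the left panel plots its Spearman correlation with the parent over 24 libraries and the right panel its counts per 100 parent counts (log scale), both against its median count (log scale), with colours for the share of 150-base windows found in the parent. Pseudogenes with over 50% of windows in the parent (red) lie at 1.10 to 88.8 counts per 100, and the low correlations gather among those with few counts, with Rpl7a-ps11 as the red point at the far right near 0.

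Most pseudogenes followed their parent from library to library. On log2 CPM, the median Spearman rho between pseudogene and parent was 0.78, from -0.50 to 0.99, and after the mean of each group was subtracted the median Pearson r was 0.80. In 43 of the 181 rho was at least 0.9, and in 9 it was below 0. The 24 points of each pair share library depth and each library's trend with gene length, and when that length trend was removed the median rho was 0.59.

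The parent was seldom the ribosomal protein gene a pseudogene followed best. Over the other genes of a list of 79 cytosolic ribosomal protein genes, the median rho of a pseudogene was 0.79 in the median pseudogene, against 0.78 with its own parent. Of the 180 pseudogenes with a parent on that list, 11 had their parent in the first place by rho and 22 within the first 5, and the median place was 30. Even among the 35 with over 50% of windows in the parent, the parent stood first for 4.

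The closest pairs were Rpsa-ps10 with Rpsa (r = 0.99, rho = 0.99), Rpl28-ps1 with Rpl28 (r = 0.99, rho = 0.99) and Rps10-ps2 with Rps10 (r = 0.98, rho = 0.98), each over 24 libraries. For these 3 the parent did stand first. Without the 2 libraries farthest from the parent's median, r was 0.99 for each of them. The ratio to the parent was correspondingly steady: Rpl28-ps1, identical to Rpl28 over all its 414 bases, held 5.37 to 7.52 counts per 100 of Rpl28, Rps10-ps2 held 22.5 to 32.5 per 100 of Rps10, and Rpsa-ps10 held 1.63 to 2.17 per 100 of Rpsa. Rpl28 and Rps10 encode proteins of the large and the small subunit.

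Identity alone did not give a high correlation. Rps6-ps4, identical to the mRNA of Rps6, the small subunit protein known for its phosphorylation downstream of growth signals, followed it with rho 0.98, and Rps12-ps3 followed Rps12 with 0.97. Rps13-ps2, by contrast, was identical to Rps13 and had a rho of 0.10, and Rpl38-ps2, identical to Rpl38, had 0.56 (both named after their values were seen).

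The lowest correlations belonged to pseudogenes with few counts. Rps7-ps2 had a median count of 10 and a rho of -0.50 with Rps7, which its sequence does not resemble. Rpl7-ps8, with 26 mismatches to Rpl7 and a median count of 14.5, had a rho of -0.23, and Rps19-ps10, with a median count of 3, had -0.13. The spread of the ratio was widest in the same range of counts, with an SD of the log2 ratio over libraries of 1.98 for Rpl29-ps5, 1.67 for Rps7-ps2 and 1.67 for Rps19-ps10, against a median of 0.53 over all 181. Rpl29-ps5, with a median count of 2, was at 0 in 9 libraries and at 12 at most.

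Correlation and sequence moved together, as did counts. The median rho was 0.61 in the 75 pseudogenes with no window in the parent, 0.80 in those with up to 50% and 0.91 in those with over 50%, and the median counts of these classes were 31, 134.25 and 702. Of the 75, 13 had a rho of at least 0.9 and 7 a rho below 0, and the part of the counts in this order was not tested.

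Some pseudogenes have no window in common with any other annotated transcript, so a read of 150 bases could be told from one of the parent. Among the 52 pseudogenes whose windows all occurred in no other transcript, 13 had a median count of at least 100 (a subset formed after the data were seen). Their median rho with the parent was 0.79 and their median rho with the other ribosomal protein genes was 0.81, with a range of -0.04 to 0.95 for the parent. In the 39 with fewer counts the median rho with the parent was 0.53.

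Rps12-ps1 was one of the 13 that followed its parent closely (named after its values were seen). It lies at chrX:102533123-102533523 on the plus strand, overlaps no listed gene, and has 15 mismatches to Rps12 and no shared stretch longer than 130 bases. Its rho was 0.94 with Rps12, which stood first among the ribosomal protein genes for it, and it held 0.725 to 1.55 counts per 100 of Rps12. It stood at 3.8, 2.8 and 2.65 CPM in the wild type control males and at 1.56, 2.15 and 3.29 in the Ptk6-/- control males. These groups overlapped (log2 fold change -0.41, SE 0.34, adjusted p = 0.497 by edgeR).

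Not all of the 13 did so. Rpsa-ps12 at chr4:149226954-149227845 and Rpsa-ps4 at chr11:32988816-32989703, with 20 and 22 mismatches to Rpsa, had rho values of -0.04 and 0.06 with it, and Rps2-ps7 at chr16:18500087-18500966 had 0.11 with Rps2. Over the 24 libraries Rpsa-ps12 stayed between 0.84 and 4.37 CPM while Rpsa ranged from 584.9 to 4602 CPM. For these 3 the correlations with the other ribosomal protein genes were also low, with medians of -0.09, 0.07 and 0.28. The 13 include Rpl18-ps1, which does not resemble Rpl18 in sequence and had a rho of 0.79 with it.

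A pseudogene inserted within a gene could also be read together with that gene. A gene on the same strand overlapped 21 of the 181 pseudogenes and one on the opposite strand overlapped 37, while 125 overlapped no listed gene. A correlation could be computed for 17 of the 21, and its median with the overlapped gene was -0.23, where the median of the 21 with their parent was 0.79. The correlation was higher with the overlapped gene than with the parent in 2 of these 17, and in 0 of those that could be compared on the opposite strand.

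**Figure D2:**
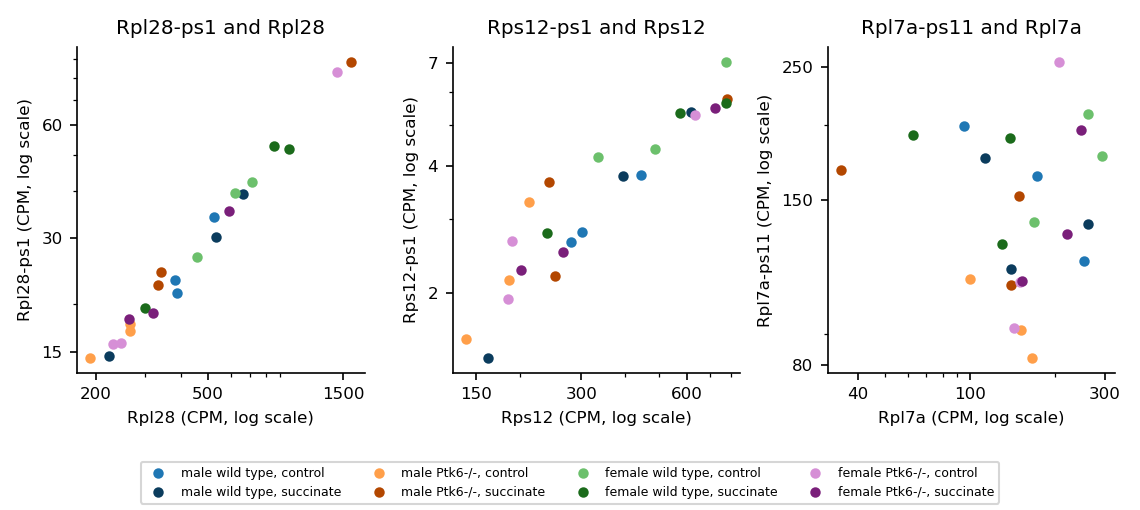
Levels of 3 pseudogenes against their parents in 24 libraries, in CPM on log axes, with a colour for each group: Rpl28-ps1 is identical to Rpl28, Rps12-ps1 differs from Rps12 in every window, and Rpl7a-ps11 differs from Rpl7a at 2 bases. The first 2 pairs rise along a line, with rho 0.99 and 0.94, and the third shows no trend, with rho 0.08.

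Rpl7a-ps11 was the pseudogene with the most counts and the one whose parent departed from the other ribosomal protein genes. It lies at chrX:165637207-165638007 on the plus strand and has 2 mismatches to Rpl7a. Of its 652 windows, 447 occur in Rpl7a, and all 652 occur in some other annotated transcript, Rpl7a included. No window is thus its own, and its counts cannot be separated by windows from those of other annotated genes. The rho of Rpl7a-ps11 was 0.08 with Rpl7a and 0.86 in the median with the other ribosomal protein genes. All the others on the list therefore stood before the parent. Rpl7a itself had a rho of 0.13 with the median of the other listed genes, the lowest of the 53 parents. The next lowest were Rpl15 with 0.77 and Rps4l with 0.79, and 50 of the 53 were at 0.8 or above.

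By library, the ratio of Rpl7a-ps11 to Rpl7a ran from 47.0 to 483 counts per 100. The highest, 483, was in succinate-treated Ptk6-/- male 1, where Rpl7a stood at 34.8 CPM and Rpl7a-ps11 stood at 168.4, and the next were 306 in succinate-treated wild type female 2 and 210 in wild type control male 1. These are the 3 libraries named above as standing apart. In the other 21 libraries the ratio was at most 156 (succinate-treated wild type male 3), and without the 2 libraries farthest from the median of Rpl7a the Pearson r of the pair went from -0.02 to 0.25.

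Counts of the family added together were closer to the rest. The 5 Rpl7a pseudogenes summed had a rho of 0.89 with the median ribosomal protein gene, and parent plus pseudogenes had 0.64, against 0.13 for Rpl7a by itself. Rpl7a-ps5, with 66.7% of its windows in no other transcript, had 0.12 with Rpl7a and 0.79 in the median with the other ribosomal protein genes, like Rpl7a-ps11. Rpl7a-ps10 and Rpl7a-ps7, with 11 and 12 mismatches, went the other way: their rho with Rpl7a was 0.04 and 0.15, and their median with the other ribosomal protein genes was -0.30 and -0.54, so that the parent stood first for both.

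In the Rpl17 family the sum also came nearer. Rpl17 had a rho of 0.92 with the median of the other ribosomal protein genes, its 6 pseudogenes summed had 0.96 and all 7 had 0.98. Relative to Rpl17, Rpl17-ps10 ranged from 33.7 to 126.5 counts per 100 and Rpl17-ps3 from 35.1 to 213, and both of the lowest were in Ptk6-/- control male 1. In the Rps27a family, whose parent encodes ubiquitin fused to a small subunit protein, Rps27a-ps2 ranged from 9.41 to 91.3 counts per 100 of Rps27a, with a rho of 0.43, and parent plus pseudogenes had 0.98 where the parent had 0.95. Over the 53 families the median was 0.97 for the parent, 0.90 for the pseudogenes summed and 0.97 for both together.

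The level of the pseudogenes as a whole rose and fell with that of the parents. The 53 parents summed to 9312 CPM in the lowest library and 43283 in the highest, and the pseudogenes to 977 and 5071 in the same libraries, Ptk6-/- control male 1 and succinate-treated Ptk6-/- male 1. The highest place depended on the scaling. As a share of all counts the pseudogenes held 0.23% in succinate-treated Ptk6-/- male 1 and 0.31% in succinate-treated wild type female 1. Across the 24 libraries the log2 sums had an r of 0.98 and a rho of 0.98, with r = 0.98 after the mean of each group was subtracted and 0.98 without the 2 farthest libraries. For the 75 pseudogenes with no window in the parent r was 0.88 and rho 0.89, with 0.93 after subtracting group means. Each library's slope on gene length of the log2 level, taken relative to each gene's mean over the libraries, went along with this, from -0.15 log2 units for each doubling of length where the parents were highest to 0.15 where they were lowest, with an r of -0.96 to the parents' sum and -0.88 to the sum of those 75. Length here is relative and was taken from each gene's ratio of counts to FPKM. The part of this length trend in the pseudogene levels was not tested beyond the fits that adjust for it.

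The ratio of the pseudogenes to the parents had r = -0.49 and rho = -0.48 with the parents' sum over 24 libraries, a description only, since that sum is also the denominator of the ratio. The order was not a steady one. The library with the highest parents, succinate-treated Ptk6-/- male 1, had 11.7 counts per 100, that with the lowest, Ptk6-/- control male 1, had 10.5, and the highest ratio, 12.97, was in wild type control male 1 at 19407 CPM of parents. Pseudogenes with no window in the parent went from 0.50 to 1.13 counts per 100 and those with over 50% from 5.75 to 7.62.

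**Figure D3:**
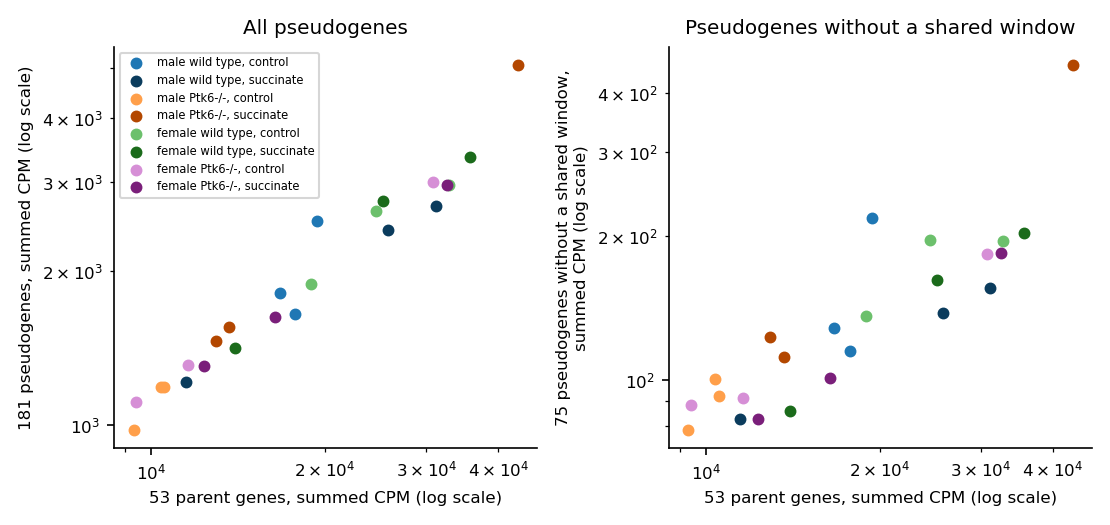
Each point is one mouse: summed CPM of the pseudogenes against summed CPM of the 53 parents on log axes, for all 181 pseudogenes (left) and the 75 with no window in the parent (right), with a colour for each group. In both panels the pseudogene sum climbs with the parent sum, and succinate-treated Ptk6-/- male 1 lies at the upper right with 5071 CPM of pseudogenes.

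In control males the pseudogenes were lower in Ptk6-/- than in wild type mice, as their parents were. The slope of level on gene length separated the same mice, at -0.07, -0.01 and -0.01 log2 units for each doubling in wild type and 0.15, 0.10 and 0.10 in Ptk6-/- libraries, and with an offset for it the median difference of the pseudogenes was -0.49 with 0 called. Of 175 tested, 171 had a log2 fold change below 0, where 48.7% of all 19218 genes tested did, and the median was -0.87 against 0.02 over all genes. The libraries of both genotypes did not overlap, lower in Ptk6-/-, for 107 pseudogenes, or 61.1% (16.3% of all genes). No pseudogene was higher in every Ptk6-/- library (16.4% of all genes). At an adjusted p under 0.05 and a fold change of at least 2, edgeR's quasi-likelihood test with Benjamini-Hochberg adjustment called 5 lower (0.224% of all genes) and 0 higher (0.515% of all genes), with 0.739% of all genes called in either direction, and 97 pseudogenes had an unadjusted p under 0.05, as did 4837 of the 19218 genes. The 53 parents had a median of -0.88 with 5 called lower, and the list of 79 ribosomal protein genes had -0.89 with 6 called lower. Other pseudogenes, 235 genes with -ps in the symbol that are not copies of Rpl or Rps genes, had a median of -0.15 with 0 called by edgeR and 40 at an unadjusted p under 0.05.

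The 5 pseudogenes called lower were Rpsa-ps10, Rpl17-ps10, Rps15a-ps7, Rps12-ps3 and Rpl17-ps3. Rpsa-ps10 had 25.6, 21.5 and 23.1 CPM in the wild type males and 10.5, 11.1 and 11.8 in the Ptk6-/- males. Each Ptk6-/- value was thus below each wild type value, and the log2 fold change was -1.09 (SE 0.14, adjusted p = 0.0200 by edgeR). Its parent Rpsa went from 1240 ± 175 to 648 ± 55.3 CPM (SD, n = 3), where edgeR gave -0.96 on the log2 scale (adjusted p = 0.0375).

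Rps15a-ps7, a copy of a small subunit gene with 25.5% of its windows in Rps15a, showed the largest difference of the 5. It had 3.56, 2.15 and 2.55 CPM in wild type males and 0.57, 0.62 and 1.02 in Ptk6-/- males. The groups did not overlap, and edgeR gave -1.91 on the log2 scale (SE 0.38, adjusted p = 0.0375), and Rps15a itself had -1.03 (edgeR adjusted p = 0.0200). Whether a pseudogene changed relative to its parent could not be shown by an exact permutation test of the log2 ratio, whose smallest two-sided p is 0.1 with 3 mice a group. Among the pseudogenes named by rule, that smallest p was met in control males by Rps15a-ps7 (mean log2 ratio -0.90 in Ptk6-/- relative to wild type), Rps10-ps2 (-0.05) and, in the other direction, Rpl7-ps8 (1.3).

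The remaining 3 of the 5 were abundant and close to the parent in sequence. Rpl17-ps10 had 94.6, 94.1 and 99.7 CPM in wild type males and 31.3, 53.2 and 51.9 in Ptk6-/- males (log2 fold change -1.10, SE 0.19, edgeR adjusted p = 0.0321). Rps12-ps3 went from 85.7 ± 18.8 to 42.7 ± 8.38 CPM (SD, n = 3) and edgeR gave -1.03 on the log2 scale (adjusted p = 0.0403). Rpl17-ps3 had 107.8, 73.9 and 69.4 CPM in wild type and 32.6, 49.0 and 44.4 in Ptk6-/- males (-1.02, edgeR adjusted p = 0.0482). On FPKM these 3 overlapped between genotypes, each through wild type male 1. It had 59.2 for Rpl17-ps10, 94.2 for Rps12-ps3 and 67.3 for Rpl17-ps3, where the highest Ptk6-/- males had 77.4, 104.4 and 71.2. Rpl17, the parent of 2 of them, overlapped between genotypes and was not called (log2 fold change -0.60, edgeR adjusted p = 0.182).

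Marker sums of these mice overlapped between genotypes for enterocyte genes (6448 to 14623 CPM in wild type, 11008 to 14496 in Ptk6-/-) and cycling genes (105.6 to 253.6 and 178.7 to 346.0 CPM), and their part in the result was not tested. These sums are scaled on total counts, and both wild type lows were in mouse 1, where 51.2% of counts were ribosomal RNA. Wild type males 2 and 3 had 14403 and 14623 CPM of enterocyte genes and 253.6 and 243.5 of cycling genes.

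How many were called rested on single libraries and on the fit. Leaving out any 1 of the 6 mice left 0 to 2 called. The 2 were without wild type control male 1, the library rich in ribosomal RNA, where 211 of 19134 genes were called and the median log2 fold change of the pseudogenes was -0.52, and 1 was called without Ptk6-/- control male 1, with 191 of 18781 genes. In each of the 4 other fits 0 pseudogenes and 2 to 6 of all genes were called, so the calls over all genes fell as well, while the medians of the pseudogenes in these 4 fits were -1.01, -0.98, -0.90 and -0.90. With the length offset, 42 of 19218 genes were called. With the replicate block, 0 pseudogenes and 5 of 19218 genes were called. With limma on log2(FPKM + 1), 0 pseudogenes and 168 of 13941 genes were called. The limma median of the pseudogenes was -0.31, against 0.25 over all genes. DESeq2 called 21 pseudogenes and 353 of 19218 genes.

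By sequence, the lower values in Ptk6-/- males were found in every class. The median log2 fold change was -0.83 for the 69 tested pseudogenes with no window in the parent, -0.89 for the 70 with up to 50% and -0.88 for the 35 with over 50%. In these classes 65 of 69, 70 of 70 and 35 of 35 had a value below 0 (48.7% of all genes), and libraries did not overlap, lower in Ptk6-/-, for 30, 47 and 30 (16.3% of all genes). A larger difference than those of the 5 called was seen in a pseudogene with few counts. Rpl31-ps10, with no shared window, at chr4:137122610-137122987, had 21, 38 and 32 counts in wild type and 11, 5 and 6 in Ptk6-/- males (log2 fold change -2.74, edgeR adjusted p = 0.0549) and was not called.

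**Figure D4:**
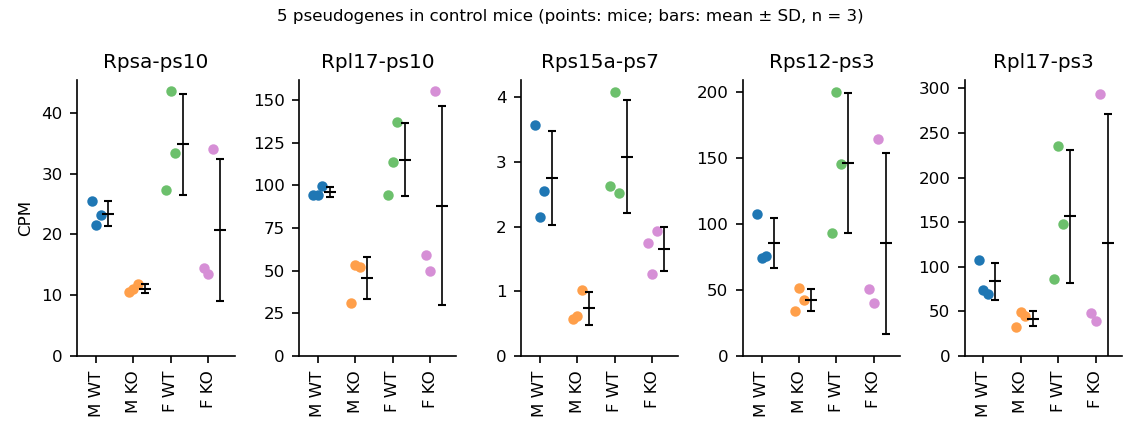
CPM of the 5 pseudogenes called lower in Ptk6-/- control males, for each control mouse (points) with the mean ± SD of 3 mice (bars), on axes that start at 0. In males (M) the wild type (WT) and Ptk6-/- (KO) mice do not overlap in any panel, though on FPKM they do for all but Rps15a-ps7. In females (F) 1 Ptk6-/- mouse lies far above the others in 4 of the 5.

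In control females 0 pseudogenes were called by edgeR (0.0158% of all genes, 0.0105% lower and 0.00525% higher), with 24 of 174 at an unadjusted p under 0.05 against 2115 of 19035 genes, a like share. DESeq2 called 1 pseudogene and 259 of 19035 genes, a lower share in the pseudogenes than over all genes. The median log2 fold change was -0.54, with 157 of 174 below 0 (47.0% of all genes), and 34 pseudogenes did not overlap, lower in Ptk6-/- (9.37% of all genes), and 2 did so higher (9.51% of all genes). The parents had a median of -0.63. Of the 3 Ptk6-/- females, 2 were low and 1 was not: the pseudogenes summed to 1309, 1110 and 2994 CPM, and the parents to 11590, 9414 and 30784. The wild type females had 1893, 2960 and 2633 CPM of pseudogenes. Enterocyte genes summed to 17024 to 21212 CPM in the wild type and 10168 to 15697 CPM in the Ptk6-/- females without overlap, heart muscle genes to 35.5 to 63.2 and 18.7 to 31.99 CPM, also without overlap, and cycling genes to 320.6, 257.7 and 93.3 CPM in the 3 Ptk6-/- females, lowest in mouse 3. Their part in these values was not tested. Without Ptk6-/- control female 3, 58 pseudogenes were called lower among 1808 genes called in all, and the median was -1.03. It was smaller in size, -0.38, without Ptk6-/- control female 2 and -0.33 with the length offset, each with 0 pseudogenes called.

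Rpsa-ps10, as an example, had 27.2, 43.6 and 33.5 CPM in wild type and 14.6, 13.5 and 34.1 in Ptk6-/- females (log2 fold change -0.72, edgeR adjusted p = 0.511). Rps15a-ps7 did not overlap, with 2.63, 4.08 and 2.52 against 1.75, 1.27 and 1.93 CPM (-0.87, edgeR adjusted p = 0.428). Rps27a-ps2 had 53.6, 37.6 and 99.1 CPM in wild type and 30.8, 8.82 and 23.2 in Ptk6-/- females (-1.56, edgeR adjusted p = 0.377). The direct test of a difference between the sexes, an interaction of sex with genotype, called 0 of 177 pseudogenes by edgeR (0.00% of all 20428 genes), with 10 at an unadjusted p under 0.05 (947 of all genes) and 0 by DESeq2 (18 of all genes), and its median was -0.35, which became 0.03 without wild type control male 1 and 0.15 without Ptk6-/- control female 3.

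Succinate was followed by higher pseudogene values in Ptk6-/- males, where most of the size came from 1 mouse. None of 173 was called by edgeR (0.00% of all genes) or by DESeq2, which called 39 of 18966 genes, 51 had an unadjusted p under 0.05 (1470 of all genes), and the median log2 fold change was 1.15 against -0.10 over all genes and 1.20 for the parents. Of the 173, 19 had a value below 0 (57.1% of all genes). Libraries did not overlap, higher with succinate, for 78 pseudogenes (11.4% of all genes), and lower for 4 (12.4% of all genes). The summed level was 977, 1187 and 1189 CPM in the control mice and 5071, 1460 and 1555 with succinate, so that each treated mouse was above each control and mouse 1 far above all. How far mouse 1 stood above depended on the scaling. As a share of all counts the pseudogenes held 0.13, 0.14 and 0.13% in control and 0.23, 0.15 and 0.17% in treated mice. Without mouse 1, the library with the fewest counts, the median was 0.35, and it was 0.67 with the length offset and 0.24 with limma on log2(FPKM + 1), where the median of all genes was -0.45. Heart muscle genes summed to 16.3 to 33.2 CPM in the control and 40.3 to 88.2 CPM in the treated mice without overlap, and their part in the result was not tested.

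Rps15a-ps7 showed this most, with 0.57, 0.62 and 1.02 CPM in control and 19.7, 1.45 and 1.66 CPM in succinate-treated Ptk6-/- males (log2 fold change 3.36, SE 1.12, edgeR adjusted p = 0.600). Rpl17-ps3 went from 32.6, 49.0 and 44.4 to 526, 67.1 and 69.6 CPM (2.51, edgeR adjusted p = 0.600). The comparison shares its control mice with that of the genotypes in males, so the low values of those mice enter both.

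In wild type mice given succinate the pseudogenes had lower median fold changes than their parents, a difference that was not tested. In males the median log2 fold change was -0.23 for 175 pseudogenes and 0.25 for the 53 parents, and in females -0.17 and -0.02. Values were below 0 for 124 of 175 in males (47.5% of all genes) and 118 of 175 in females (47.7% of all genes). None was called by edgeR (0.00% of all genes in either sex) or by DESeq2, which called 47 of 19183 genes in males and 258 of 18872 in females, with 3 pseudogenes in males (781 of all genes) and 2 in females (1466 of all genes) at an unadjusted p under 0.05, lower shares than over all genes. By sequence the medians in males were -0.37, -0.25 and 0.13 for pseudogenes with no window, up to 50% and over 50% of windows in the parent, and in females -0.38, -0.19 and near 0. Libraries did not overlap, lower with succinate, for 11 of 175 pseudogenes in males, or 6.29% (4.52% of all genes), and for 15 of 175 in females, or 8.57% (6.66% of all genes). Those with no window were 8 and 11 of these. None did so higher in males (4.66% of all genes) or females (6.41% of all genes). Without succinate-treated wild type male 1, 3 of 174 pseudogenes were called higher, where 1077 of 18555 genes were called in either direction, a larger share. The median over all pseudogenes in males was 0.11 without wild type control male 1, and in females 0.16 without succinate-treated female 3, so these signs each rested on 1 library. In males the B cell genes summed to 21.3 to 38.2 CPM in control and 106.4 to 110.8 CPM in treated mice. In females enterocyte genes summed to 17024 to 21212 and 7116 to 14919 CPM, and smooth muscle genes to 2657 to 3123 and 3357 to 5149 CPM. These sums did not overlap, and their part in the fold changes was not tested.

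In Ptk6-/- females succinate left the pseudogenes at a median log2 fold change of 0.16, with 0.33 for the parents. None of 172 was called by edgeR (0.0879% of all genes) or by DESeq2, which called 433 of 19334 genes, 3 had an unadjusted p under 0.05 (2060 of all genes), 64 had a value below 0 (52.8% of all genes), and 7 did not overlap, higher with succinate (10.2% of all genes). These 7 were 4.07%, a lower share than over all genes. For 1 pseudogene libraries did not overlap, lower with succinate (11% of all genes). The median of the pseudogenes was -0.33 without succinate-treated female 2 and -0.02 without control female 1. Smooth muscle genes summed to 2183 to 2930 CPM in control and 3351 to 4302 CPM in treated mice, and heart muscle genes to 18.7 to 31.99 and 32.2 to 56.7 CPM, both without overlap, and their part was not tested. Rps27a-ps2 was among the 7 that did not overlap, with 30.8, 8.82 and 23.2 CPM in control and 46.2, 103 and 34.8 with succinate (log2 fold change 1.52, edgeR adjusted p = 0.430).

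**Figure D5:**
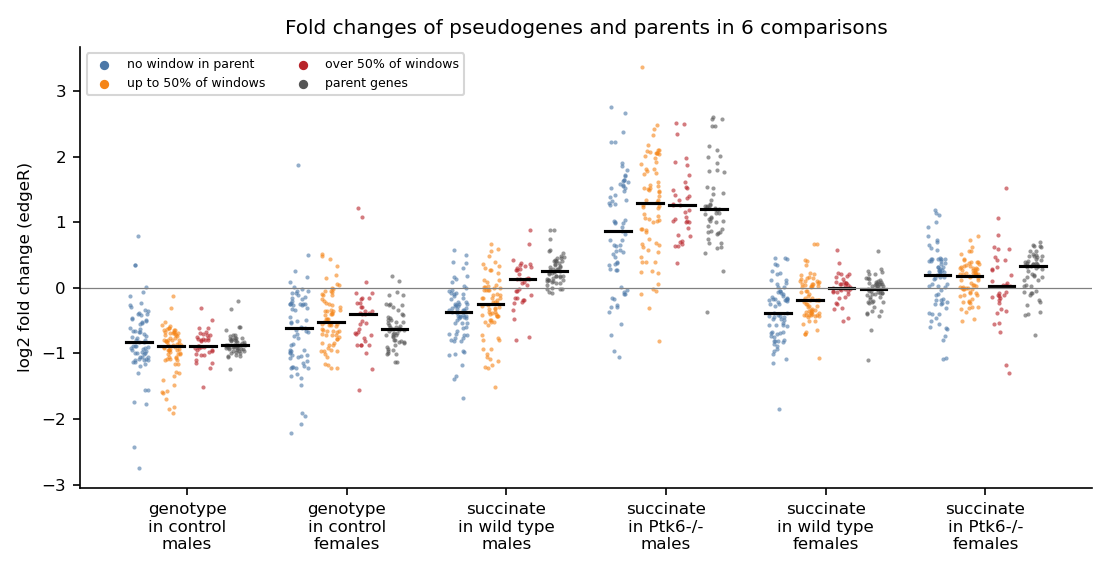
The log2 fold change (edgeR) of each tested pseudogene and parent gene in 6 comparisons, with pseudogenes coloured by the share of 150-base windows found in the parent and black lines at the medians. In control males all 4 sets lie at medians of -0.83 to -0.89, and after succinate in wild type mice the pseudogenes with no shared window have lower medians (-0.37 in males, -0.38 in females) than the parents (0.25 and -0.02).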

How the data were processed

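Poly(A) RNA of 24 distal jejunum samples was sequenced as stranded paired-end libraries. The authors trimmed reads with Cutadapt, mapped them with HISAT2 and assembled them with StringTie, and ballgown gave the deposited FPKM values. The deposited counts are whole read counts per gene, not normalized. The build, GRCm39, is from the submitters' processing notes, and the counting program and annotation release are not given in the sources used here, nor is how reads fitting several genes were counted. No label says that replicate numbers pair mice.

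Total counts ranged from 8080321 to 52824743. CPM values used TMM library sizes, and marker sums used total counts. Each comparison used edgeR 4.0.16 (quasi-likelihood test, TMM, genes reaching 10 counts in 3 or more of its libraries) over all genes, with Benjamini-Hochberg adjustment. Genes were called at an adjusted p under 0.05 and a fold change of at least 2. edgeR's test was checked on simulated counts, with the outcome not reported here. Correlations used log2 CPM with a prior count of 2. Gene length, for the slopes and the length offset, was not read from an annotation. It was each gene's median ratio of deposited counts to FPKM over the libraries, after scaling within each library. Alternatives were DESeq2 1.42.0 (the study's tool), its size factors, 2 filters, a replicate block, a length offset, limma 3.58.1 on log2(FPKM + 1), pseudogenes added to parents, and leaving out each library.

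Transcripts of GENCODE M21 (another build, used for bases only) were aligned with Biopython 1.88 to the best-scoring coding transcript of the parent on either strand. This choice, made after seeing the data, replaced the longest transcript, which gave a median identity of 98.1% and was over 5 points lower for 13 pseudogenes.

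A pseudogene was named if it was among the 3 called with the smallest adjusted p in a direction, the 6 highest in mean FPKM, the 3 highest and lowest in rho or in identity, or the 3 highest in ratio to the parent or in the SD of its log2. Other names were picked with their values known. The members and lists were chosen with earlier results of these data known. P-values measure the spread between mice.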

Additional observations from a re-analysis of the deposited data

Results flagged for a closer look

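Under succinate, 2 of the named pseudogenes had log2 fold changes of opposite sign in 2 groups of mice, without overlap between control and treated libraries when each comparison was scaled by itself. Neither was called in any of these comparisons, and the difference between groups was not tested. Rpl7-ps8 had 30, 20 and 24 counts in control and 0, 13 and 8 in succinate-treated Ptk6-/- males (log2 fold change -1.05, edgeR adjusted p = 0.643), and 14, 9 and 8 in control and 22, 40 and 30 in succinate-treated Ptk6-/- females (1.14, edgeR adjusted p = 0.531). Rps2-ps9 had a log2 fold change of -0.62 with succinate in wild type males (edgeR adjusted p = 0.947) and 1.64 in Ptk6-/- males (edgeR adjusted p = 0.608), at 0.15 to 3.02 CPM over all libraries. Its separation in Ptk6-/- males depended on the scaling: with all 24 libraries scaled together, the lowest treated mouse (0.455 CPM) was just below the highest control (0.458 CPM), so those groups overlapped. Both are low in counts, and succinate-treated Ptk6-/- male 1, the library with the lowest total, is the one at 0 for Rpl7-ps8 and at 3.02 CPM for Rps2-ps9.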

How the results depend on the processing

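In control males, 5 pseudogenes were called lower. The count was 21 with DESeq2 and 10 when at least 10 counts were required in every library (198 of 15641 genes called). It was 0 with the replicate block (5 of 19218 genes called), the length offset (42), the length offset with the replicate block (4), and limma on log2(FPKM + 1), which called 168 of 13941 genes. It was 0 to 2 with 1 library left out. In control females the count of 0 became 1 with DESeq2 and was 0 to 58 with 1 library left out, the 58 without Ptk6-/- control female 3. For succinate in wild type males it was 0 to 3. The other succinate comparisons and the interaction gave 0 pseudogenes called under every alternative listed in the methods. The 5 called pseudogenes stayed below 0 under each alternative run on them, and each lost its call under 9 to 11 of 14. The median log2 fold change in control males, -0.87, was -0.49 with the length offset, -0.44 with the replicate block as well and -0.31 with limma, where the median of all genes was 0.25. For succinate in Ptk6-/- males, 1.15 became 0.24 with limma, where the median of all genes was -0.45, and was otherwise 0.35 to 1.54. Without limma, whose all-gene medians also shifted in other comparisons (0.25 for succinate in wild type males, 0.29 for the interaction), the medians for succinate in wild type males (-0.43 to 0.11), wild type females (-0.50 to 0.16) and Ptk6-/- females (-0.33 to 0.59) and for the interaction (-0.51 to 0.15) took both signs over the alternatives, so no direction is read from them.

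The labels do not pair mice by replicate number, and same-numbered control males did not deviate together (correlations of -0.07, 0.01 and -0.02). The median rho with the parent, 0.78, was 0.70 on log2(FPKM + 0.1) and 0.59 with the length trend removed, and otherwise 0.78 to 0.80. The summed ratio of 10.6 counts per 100 parent counts became 33.9 on FPKM, by which short pseudogenes gain, and was otherwise 10.4 to 10.9. Counts under about 10 limit the ratio of the rarest pseudogenes.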
